A study of Homo sapiens with 6 samples.

Results

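Apolipoproteins and MTTP, which transfers lipid onto APOB, were followed as 10 genes in Caco-2 cells over 48 h of coculture with THP-1 cells. The genes were APOA1, APOA2, APOA4, APOB, APOC2, APOC3, APOE, APOH, APOM and MTTP. They were taken by name, and every probe set annotated to exactly 1 of these symbols was used, which gave 20 of the 41091 probe sets with 1 symbol and 10 of the 19775 genes. A further 2 probe sets carry a member symbol together with other symbols and were left out.

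The Caco-2 line, from a human colorectal adenocarcinoma, forms a polarised monolayer with enterocyte features. THP-1, a line from a human monocytic leukaemia, takes on macrophage features under phorbol myristate acetate (PMA). After 14 days on a semi-permeable support, the Caco-2 monolayers were set above THP-1 cells that had received PMA for 4 days in plates with 12 wells. Caco-2 RNA was hybridised to 1 array at each of 0, 1, 3, 6, 24 and 48 h, and no group has a replicate. The 0 h cells are the only reference; Caco-2 cells kept for 24 or 48 h without THP-1 cells were not analysed here.

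Enterocytes package dietary fat into chylomicrons, and hepatocytes build very low density lipoproteins in the same way. In both, MTTP in the endoplasmic reticulum transfers lipid onto the growing APOB chain, and smaller exchangeable apolipoproteins join the particle or form high density lipoprotein. Caco-2 cells secrete particles that carry APOB and are a common model of this process, and like fetal intestine and liver they express a wide set of apolipoproteins.

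The deposited values are MAS5 signals, the linear intensity of a probe set after background correction and scaling of the array. A signal of 16.2, the 50th percentile of all values, served as the floor, and lower signals were raised to it before log2 was taken. Where a gene has several probe sets, the one with the highest mean log2 signal stands for it. A gene is called lower or higher when it differs at least 2-fold from 0 h and the brighter of both arrays is above the floor. As there is 1 array per time, no test could be made, no p-value or SD exists, and all values have n = 1. The spread of all measured genes between the 0 and 1 h arrays, which holds noise and any early response, is the nearest yardstick. Its robust SD on the log2 scale was 0.55 at signals of 16 to 64, 0.38 at 64 to 256, 0.31 at 256 to 1024, 0.25 at 1024 to 4096 and 0.11 above that.

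Array medians ranged from 15.3 to 16.7. Of the enterocyte markers, 14 of 14 were above the floor on each array, with a summed signal of 24234 to 27730. Their median signals were 1072, 1003 and 702 on the 0, 24 and 48 h arrays. The median of their log2 ratios to 0 h was 0.11 at 24 h and 0.01 at 48 h. At 48 h 2 of the 14 were at least 2-fold lower and none higher. SI, the disaccharidase sucrase-isomaltase, and FABP1 had fallen at 48 h (log2 ratios of -2.17 and -2.13), and KRT20, an intestinal keratin, had risen at 24 h (2.02). The part of enterocyte state in the falls of the 10 genes was not tested. Of 18 macrophage markers with a probe set, 6 to 9 were above the floor on an array, and their summed signal was 994 at 0 h and 644 to 879 afterwards. On at least 1 array 11 of the 18 were above it. AIF1 went from 360.0 at 0 h to 43.0 at 48 h and the scavenger receptor MSR1 from 91.7 to 43.9, both falls past 2-fold. The lysozyme gene LYZ had 247 and 412 on these arrays, LAPTM5 83.3 and 58.4, and CD14 59.8 and 48.5. FCER1G had 37.7 and 21.5, and its log2 ratios were -1.13, -1.22 and -1.22 at 1, 3 and 6 h. LYZ and CD14 are named outside the rule for list genes given below. Under the floor on each array were PTPRC, SPI1, MRC1, C1QA, C1QB, C1QC and FCGR2A. The 3' to 5' signal ratio of the ACTB control, a measure of RNA integrity and labelling, was 51.2, 27.7, 22.9, 18.0, 27.9 and 37.0 on the arrays in order of time.

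By the probe set that stands for each gene, part of the 10 genes fell at least 2-fold late in coculture, while APOA2, APOB, APOC3 and APOE did not pass 2-fold at any time. All 10 genes were measured, meaning above the floor on at least 1 array, and 9 were above it on all arrays. At 48 h 6 of the 10 genes had fallen at least 2-fold against 0 h (APOA1, APOA4, APOC2, APOH, APOM and MTTP), where 6.14% of the 14623 measured genes had. At 24 h 3 of the 10 had fallen (APOC2, APOM and MTTP), again beside 6.14% of all measured genes. At 6 h APOM alone had fallen (6.45% of all), at 3 h none (3.52%), and at 1 h APOC2 alone (1.44%). None of the 10 was called higher at any time, beside 1.90%, 3.10%, 4.23%, 3.95% and 3.82% of all measured genes at 1, 3, 6, 24 and 48 h. The median log2 ratio of the 10 genes to 0 h was -0.09, -0.15, -0.37, -0.90 and -1.06 at these times, while that of all measured genes lay between -0.04 and 0.00. These comparisons share the 0 h array. Set against the 1 h array instead, 4 of the 10 genes were at least 2-fold lower at 48 h (APOA4, APOH, APOM and MTTP), where 4.83% of all measured genes were lower and 2.98% higher, and the median was -0.81. At 24 h 2 were (APOM and MTTP), beside 4.55% lower and 2.55% higher.

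**Figure D1:**
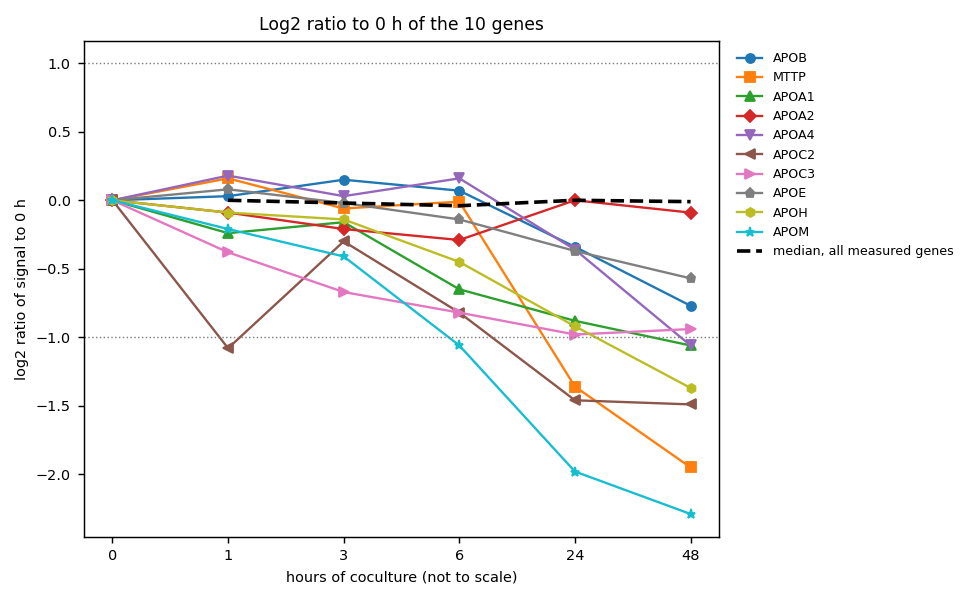
Log2 ratio of signal to 0 h (vertical axis) for each of the 10 genes at 0, 1, 3, 6, 24 and 48 h (horizontal axis, not to scale), with the median of all measured genes as a dashed black line and dotted lines at 2-fold. APOM and MTTP reach the lowest values at 48 h, -2.29 and -1.95, while APOA2 stays at -0.09.

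In 9 of the 10 genes both the 24 h and the 48 h signal lay below each of the 4 earlier signals, a count chosen after the values were seen, beside 13.3% of all measured genes. The exception was APOA2. In bulk RNA, fewer cells expressing a gene and less RNA per cell cannot be told apart, and a time-matched monoculture is missing from the comparison, so coculture and time in culture cannot be told apart either.

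Promoter sequences from RefSeq (GRCh38.p14) are shown for the 3 genes with the largest falls among those above the floor on all arrays, APOM, MTTP and APOH, and for APOA2, the gene that moved least. The table holds promoters for 7 of the 10 genes. Each run covers the 250 bases before the annotated start, 5′ to 3′ on the gene's own strand. Capitals mark matches, on either strand, to 5 short motifs: AGGTCA and AGTCCA, hexamers of the kind bound by nuclear receptors, GTTAAT, the core bound by liver-type homeodomain factors, TATAAA and CCAAT.
APOM, chr6:31655644-31655893, plus strand: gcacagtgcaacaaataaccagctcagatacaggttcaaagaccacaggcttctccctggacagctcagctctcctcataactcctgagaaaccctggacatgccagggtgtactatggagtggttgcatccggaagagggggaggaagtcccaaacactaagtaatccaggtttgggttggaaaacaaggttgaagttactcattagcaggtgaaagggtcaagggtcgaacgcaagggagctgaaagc
MTTP, chr4:99574574-99574823, plus strand: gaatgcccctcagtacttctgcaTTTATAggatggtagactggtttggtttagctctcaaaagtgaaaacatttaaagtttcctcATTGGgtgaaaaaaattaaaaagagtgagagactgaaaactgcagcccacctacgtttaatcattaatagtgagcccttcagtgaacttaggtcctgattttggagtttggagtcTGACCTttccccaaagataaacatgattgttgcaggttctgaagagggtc
APOH, chr17:66229416-66229665, minus strand: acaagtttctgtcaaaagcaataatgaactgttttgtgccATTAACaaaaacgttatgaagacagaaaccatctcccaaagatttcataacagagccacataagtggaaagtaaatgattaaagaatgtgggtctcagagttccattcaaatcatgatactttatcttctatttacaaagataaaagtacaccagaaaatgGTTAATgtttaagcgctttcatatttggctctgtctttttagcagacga
APOA2, chr1:161223629-161223878, minus strand: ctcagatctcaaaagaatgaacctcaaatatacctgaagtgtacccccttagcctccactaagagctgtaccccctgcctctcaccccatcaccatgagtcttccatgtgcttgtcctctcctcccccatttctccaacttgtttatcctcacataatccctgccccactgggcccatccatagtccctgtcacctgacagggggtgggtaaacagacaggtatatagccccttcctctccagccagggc

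The MTTP window, the downstream of its 2 starts in the table, holds AGGTCA on the opposite strand from 50 to 45 bases before the start. That hexamer occurs in 12.1% of the 35116 promoter windows of the same length. The same window has TATAAA on the opposite strand at 227 to 222 bases (10.7% of windows) and CCAAT on the opposite strand at 165 to 161 bases (32.0% of windows). In the window of the other MTTP start, not shown, none of the 5 motifs was matched. APOH holds GTTAAT at 49 to 44 bases and, on the opposite strand, at 210 to 205 bases, a motif present in 6.23% of windows. No motif of the 5 was matched in the APOM and APOA2 windows, which says only that these letters are not there. AGTCCA, found in 9.63% of windows, was matched in none of the 4 and once in that of APOA4, at 132 to 127 bases.

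APOB, the structural protein of chylomicrons and very low density lipoprotein, was among the brightest genes and was little changed until 6 h. Its signals over 0, 1, 3 and 6 h were 5818, 5938, 6440 and 6110, followed by 4597 and 3402 on the late arrays. The first 4 arrays lay within 1.11-fold of 0 h, and both late arrays were below them. The log2 ratio was -0.34 at 24 h and -0.77 at 48 h, short of 2-fold. At signals above 4096 the spread between the 0 and 1 h arrays was 0.11, and 10.8% of measured genes had a lower ratio than APOB at 48 h.

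The second APOB probe set ran the other way. Its signal of 11.5 at 0 h was under the floor, and the later arrays gave 289, 613, 414, 64.0 and 103 in order of time. Against the floor these are at least 17.8-fold, 37.7-fold, 25.5-fold, 3.94-fold and 6.32-fold higher. No other of the 20 probe sets was at least 2-fold higher at any time. Among the 28029 probe sets with 1 symbol that were above the floor on at least 1 array, 2.82%, 4.99%, 5.88%, 5.06% and 5.36% were at least 2-fold higher at the 5 times. Its lowest value was on the array with the highest ACTB 3' to 5' ratio (51.2), and its 1, 3 and 6 h values, the highest, were on arrays with ratios of 18.0 to 27.7. The 24 h array had nearly the ratio of the 1 h array, 27.9 against 27.7, but a signal of 64.0 against 289. The GAPDH control ratio stayed between 3.54 and 4.72. The part of RNA integrity or labelling in this probe set's course was not tested, and the brighter probe set, at 1.02-fold to 1.11-fold of 0 h over 1 to 6 h, does not share it.

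**Figure D2:**
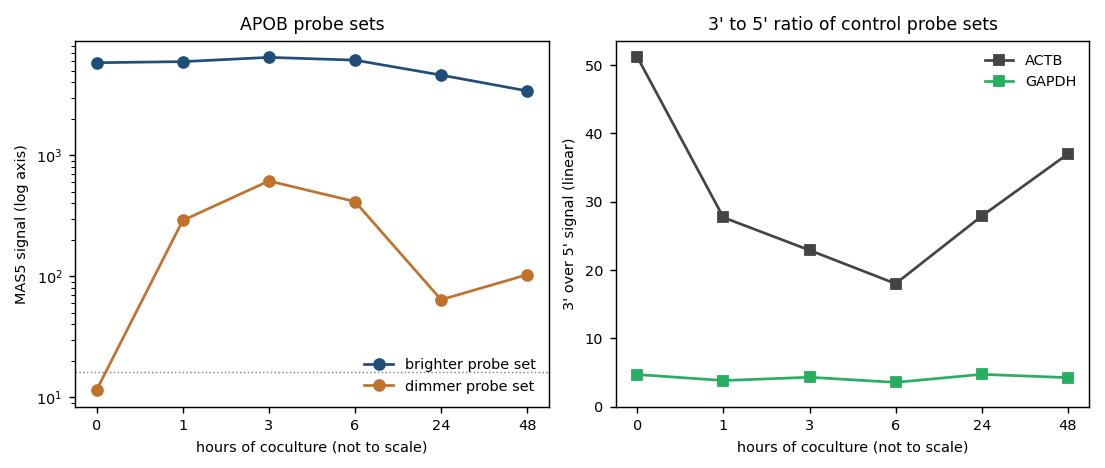
Left, MAS5 signal (log axis) of the 2 APOB probe sets over the 6 times, with the floor of 16.2 dotted; right, the ratio of 3' to 5' control signal (linear axis) for ACTB and GAPDH on the same arrays. The dimmer probe set goes from 11.5 at 0 h to 613 at 3 h while the brighter one stays between 5818 and 6440 up to 6 h, and the ACTB ratio is highest at 0 h and lowest at 6 h.

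MTTP, the transfer protein without which APOB is not loaded with lipid, was lower on the late arrays only. No array lies between 6 and 24 h, so the pace of the change is not known. Its signal was 1125, 1258, 1077 and 1116 on the 4 early arrays and 438 and 292 on the late ones. The 4 early arrays differed little and did not overlap with the 2 late ones. It had fallen 2.57-fold at 24 h and 3.86-fold at 48 h, and 0.595% of measured genes had a lower ratio at 48 h. Between 6 and 24 h MTTP was lower by a log2 difference of -1.35, the only one of the 10 genes past 2-fold over that interval, beside 2.41% of measured genes (2.13% were higher). Against the 6 h array, APOA4, APOM and MTTP were at least 2-fold lower at 48 h, beside 3.78% of measured genes lower and 3.17% higher. The gene has 1 probe set, so no second one could be compared.

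**Figure D3:**
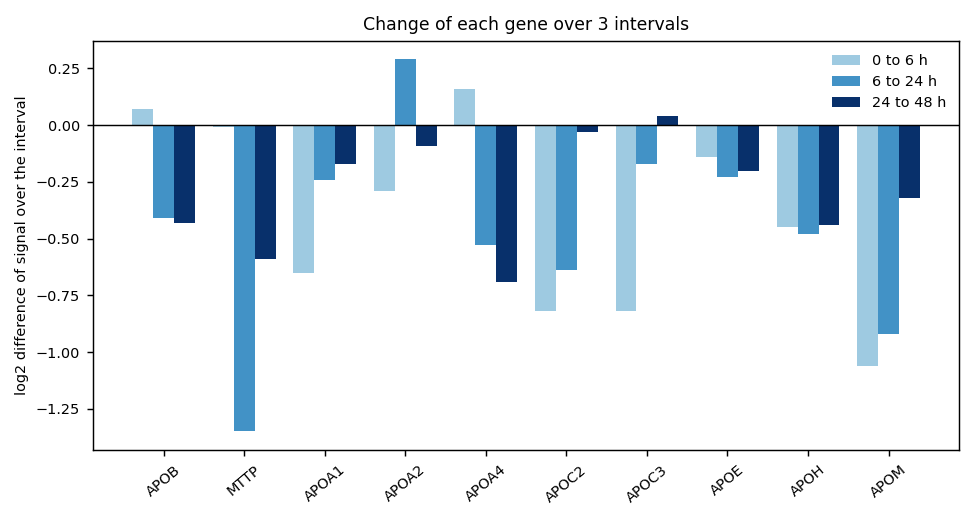
Log2 difference of signal (vertical axis) over the intervals 0 to 6 h, 6 to 24 h and 24 to 48 h for each of the 10 genes, as bars from 0. The bar of MTTP is near 0 (-0.01) for the first 6 h and -1.35 for 6 to 24 h, whereas APOC3 has -0.82 in the first interval and -0.17 and 0.04 afterwards.

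APOA1, the main protein of high density lipoprotein, was lower at 6 h and lower again on the late arrays. The signal was 5216, 4411, 4662 and 3324 on the 4 early arrays and 2824 and 2505 on the late ones, a fall of 2.08-fold. The remaining pair of APOA1 probe sets had log2 ratios of -0.70 and -0.86 at 48 h, short of 2-fold, and 0.37 and 0.24 at 1 h, where the brightest had -0.24. All 3 were below 0 h at 6, 24 and 48 h. Against the 1 h array the log2 ratio of APOA1 at 48 h was -0.82 by the brightest probe set. The call by that probe set therefore rests on the 0 h array. The remaining pair had signals of 2780 and 3599 at 1 h. Their signals at 48 h, 1321 and 1678, were 2.10-fold and 2.14-fold below these.

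APOA2, the second protein of high density lipoprotein, had the smallest range of the 10 genes. Its signal was 8063, 7589, 6958, 6616, 8082 and 7570 at 0, 1, 3, 6, 24 and 48 h, brighter at 0 h than 99.9% of probe sets. The lowest array was 6 h and the highest 24 h, a range of 1.22-fold. The dimmer probe set of APOA2 had signals of 1283, 910.2, 960.2, 789.9, 985 and 853, with a log2 ratio of -0.59 at 48 h. Neither reached 2-fold at any time.

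APOA4, which enterocytes add to chylomicrons, was close to its 0 h level up to 6 h and lower on the late arrays. The signal was 918, 1037, 937 and 1029 up to 6 h, 714 at 24 h and 441 at 48 h. It had fallen 2.08-fold at 48 h, and the larger part lay between 24 and 48 h, with a log2 difference of -0.69 against -0.53 between 6 and 24 h. Among the 10 genes this was the largest difference over the last interval, in which no member passed 2-fold (1.38% of measured genes were lower by 2-fold there and 0.964% higher). APOA4 has 1 probe set.

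APOC3, which slows the removal of triglyceride by lipoprotein lipase, was lower from the first hours. Its signals in order of time were 1685, 1298, 1060, 956, 852 and 876. Most of the difference was present by 6 h (log2 ratio -0.82), and 24 and 48 h were close to each other (-0.98 and -0.94), just short of 2-fold. The dimmer APOC3 probe set went the other way, with signals of 85.7, 163, 112, 144, 160.1 and 103 and a log2 ratio of 0.90 at 24 h.

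APOC2, the activator of lipoprotein lipase, was near the floor throughout. The 6 signals in order of time were 45.7, 21.7, 37.0, 25.9, 16.6 and 16.2, of which the last is just under the floor. APOC2 had fallen 2.11-fold after 1 h, was within 2-fold of 0 h on the 3 and 6 h arrays, and had fallen 2.75-fold by 24 h and at least 2.82-fold by 48 h. At such signals the spread between the first 2 arrays was 0.55, and against the 1 h array the log2 ratio at 48 h was -0.42. The other APOC2 probe set was above the floor at 0 h alone, with a signal of 21.5.

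APOE, a ligand of lipoprotein receptors that macrophages also make, differed between its probe sets in the size of the change. The brightest had signals of 4424, 4665, 4364 and 4002 on the early arrays and 3412 and 2974 on the late ones, a log2 ratio of -0.57 at 48 h, short of 2-fold. The second had 3278, 3125, 3002 and 2750, then 1714 and 1331, and was 2.46-fold lower at 48 h. The third had 4568, 3851, 2623 and 2934, then 1106 and 795, and was 5.74-fold lower at 48 h. In all 3 both late arrays lay below the 4 early ones. AIF1, on the macrophage list, also fell over this time (log2 ratio -3.07 at 48 h), as did MSR1 (-1.06), while LYZ had 0.74. The summed signal of that list was 994 at 0 h and 748 at 48 h. AIF1 gave 360.0 and 43.0 of these, a larger fall than that of the sum. The part of RNA from other cells in the APOE values was not tested.

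APOM, a lipocalin that carries sphingosine 1-phosphate on high density lipoprotein, showed the largest fall of the 10 genes. Its signals of 2569, 2229, 1931, 1232, 653 and 524 put each array below the one before. The fall was 2.08-fold by 6 h, 3.93-fold by 24 h and 4.90-fold by 48 h, when 0.301% of measured genes had a lower ratio. The second probe set gave 2524, 2027, 1864, 1124, 626 and 476, 5.30-fold lower at 48 h. At 48 h the log2 ratios of the pair were -2.29 and -2.41, and neither overlapped with its early values on the late arrays.

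APOH, beta-2-glycoprotein I, a plasma protein that binds anionic phospholipid, was lower on each array than on the one before. The signal was 4859, 4568, 4409 and 3558 on the early arrays and 2560 and 1883 on the late ones. The log2 difference was -0.45 over the first 6 h, -0.48 from 6 to 24 h and -0.44 from 24 to 48 h, and the fall at 48 h was 2.58-fold. The dimmer APOH probe set had signals of 301, 176, 194, 123, 109.8 and 52.1 and was 5.78-fold lower at 48 h.

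**Figure D4:**
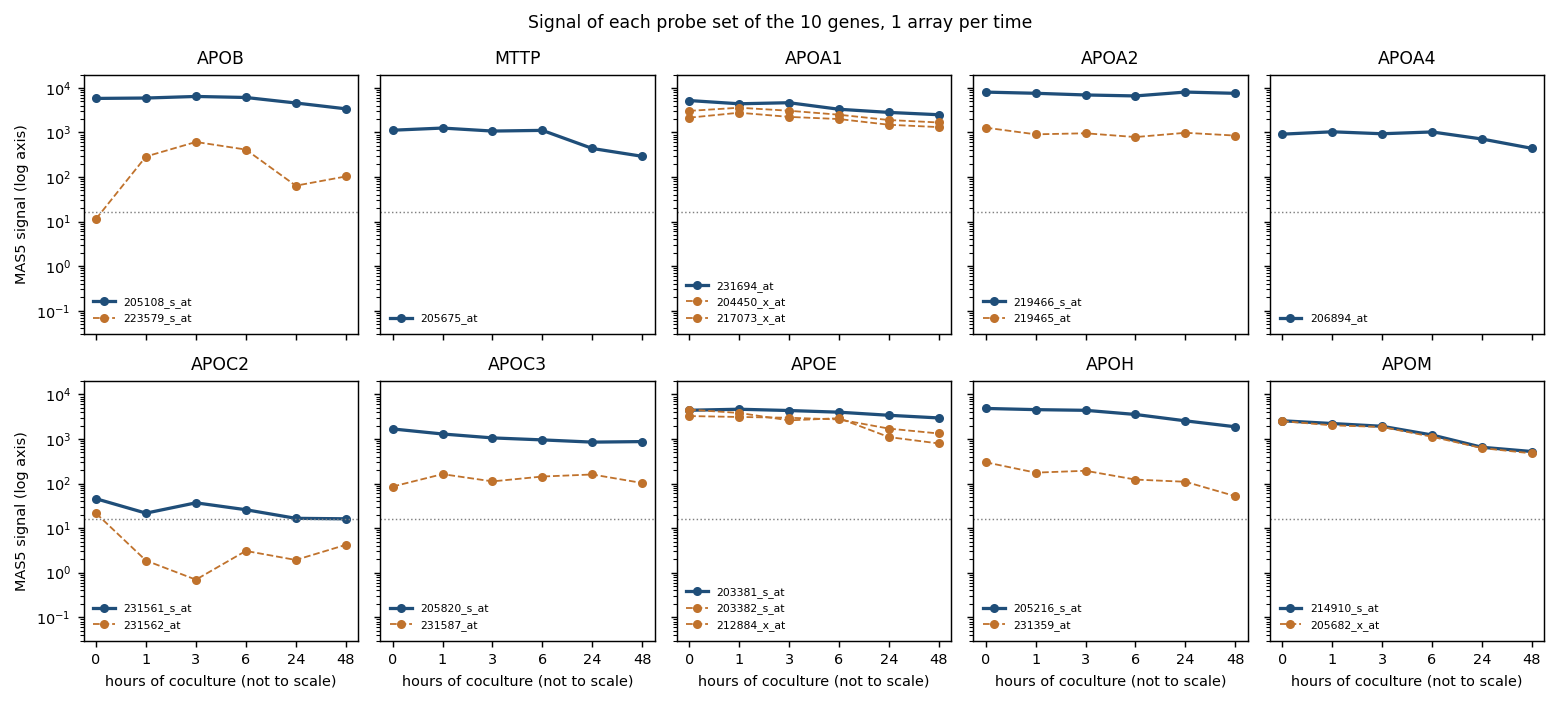
MAS5 signal (log axis) of each of the 20 probe sets over 0, 1, 3, 6, 24 and 48 h (not to scale), one panel per gene; the blue solid line is the probe set that stands for the gene, orange dashed lines are its other probe sets, and the dotted line is the floor of 16.2. At 48 h 18 of the 20 lie below their 0 h value after flooring, and the exceptions are the dimmer probe sets of APOB and APOC3. By gene, 50.4% of all measured genes lie below 0 h at 48 h. The dimmer APOC2 probe set, with 21.5 at 0 h, is under the floor on all later arrays.

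Over the 20 probe sets, 10 were at least 2-fold lower and 1 higher at 48 h, beside 4.84% and 5.36% of all 28029 probe sets with 1 symbol that were above the floor on at least 1 array. At 24 h 6 were lower and 1 higher, beside 5.05% and 5.06%. At 6 h 3 were lower, beside 5.60%, at 3 h none, beside 3.14%, and at 1 h 1, beside 1.54%; the single higher one was that of APOB each time, beside 5.88%, 4.99% and 2.82%. Probe sets of a gene share the RNA and the array, so they compare probes, not cultures.

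Genes that lie together on the chromosome did not share 1 course. APOA4, APOC3 and APOA1 are adjacent on chromosome 11 with APOA5, which is not among the 10. Their log2 ratios at 6 h were 0.16, -0.82 and -0.65, and at 48 h -1.06, -0.94 and -1.06. APOA5, a regulator of plasma triglyceride, had -0.38 at 6 h and had fallen at 48 h (-1.81), from a signal of 86.2 to 24.5. The flanking genes ZPR1 and SIK3 had 0.23 and -0.07 at 48 h. On chromosome 19 the order is APOE, APOC1, APOC4 and APOC2, and APOC4 has no probe set of its own. APOC1 had 0.18 at 48 h with signals of 497 to 623 over the 6 arrays, although its dimmer probe set had -2.09. The outer neighbours TOMM40 and CLPTM1 had 0.30 and -0.92, and CLPTM1, beside APOC2, went from 177 to 93.8. APOC1 was named for its position, with its values known.

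Other genes of lipoprotein biology were taken from 6 lists, here by role. For all their counts, 6.14% of all measured genes were at least 2-fold lower at both 24 and 48 h. At these times 3.95% and 3.82% were higher. Of the 20 measured genes of assembly and export from the endoplasmic reticulum, 1 was lower and 3 were higher at 48 h, with a median log2 ratio of 0.05 beside -0.01 for all measured genes. SEC24D and SEC23B, coat proteins of the vesicles that leave the endoplasmic reticulum, rose to log2 ratios of 2.19 and 1.27, and MIA2, which helps load large cargo, to 1.41. Other probe sets of these 3 genes gave as little as 0.08, 0.22 and -0.32. SAR1B, the GTPase needed for chylomicron export, had signals of 749 at 0 h and 1407 at 48 h, a log2 ratio of 0.91, with other probe sets down to -0.04. P4HB, the disulfide isomerase that is the partner subunit of MTTP, had signals of 2642, 2584 and 2213 over 0, 24 and 48 h, a log2 ratio of -0.26, with another probe set at 0.95, where MTTP had -1.95. The lower gene was SEC13. SAR1B, P4HB and SEC13 were singled out after their values were seen.

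Of 21 measured genes of triglyceride and cholesteryl ester synthesis, 5 had fallen and 2 had risen at 48 h, with a median of -0.33. SOAT2, the cholesterol esterifying enzyme of enterocytes and hepatocytes, went from 274 to 64.5 (log2 ratio -2.09) and 73.5 on the late arrays. FABP1, a fatty acid carrier, had fallen by 2.13 on the log2 scale at 48 h, and SLC27A2, a fatty acid activating enzyme, had fallen 2.83-fold, from 1652 to 584. The other SLC27A2 probe set had a log2 ratio of -0.72 at 48 h, short of 2-fold. DGAT1, which makes triglyceride, was chosen after its values were seen, with signals of 1019, 987, 694 and 501 over 0, 6, 24 and 48 h, a fall of 2.03-fold. LPIN1, a phosphatidate phosphatase, rose early, with log2 ratios of 1.11, 1.79 and 1.82 at 1, 3 and 6 h and 0.02 at 24 h.

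**Figure D5:**
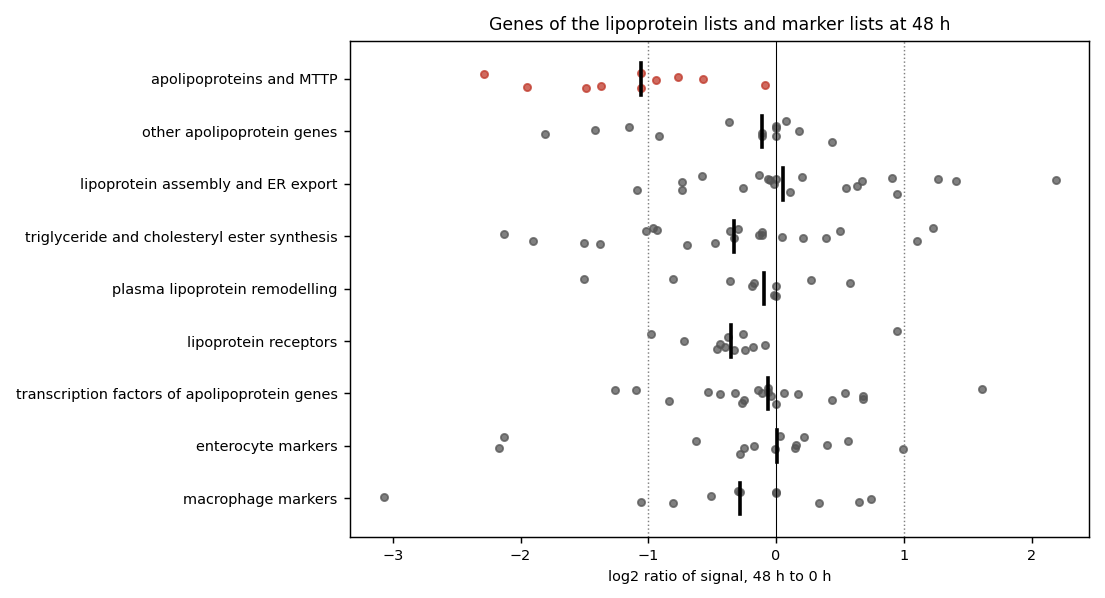
Log2 ratio of signal at 48 h to 0 h (horizontal axis) for each measured gene (points) of the 10 genes, in red, and of 6 lipoprotein lists and 2 marker lists, in grey; black bars are medians, dotted lines 2-fold, and the vertical scatter has no meaning. The median of the 10 genes is -1.06, and those of the other lists lie between -0.36 and 0.05.

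Plasma lipoprotein remodelling had 1 of 10 measured genes lower at 48 h and none higher, with a median of -0.09. That gene was LMF1, which matures lipases, 2.83-fold lower with signals of 83.8 and 29.6, though another of its probe sets had a log2 ratio of 1.07. LIPA, the lysosomal acid lipase, had -0.98 at 24 h and -0.81 at 48 h. Lipoprotein receptors had 2 of 12 lower at 24 h, LRP1 at -1.14 and LRP8 at -1.13, and none at 48 h, when the median was -0.36. MYLIP, a ligase that degrades lipoprotein receptors, had 0.95 at 48 h, with probe sets from -0.71 to 0.95.

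Of 21 measured transcription factors known to act on apolipoprotein genes, 2 were lower and 1 was higher at 48 h, with a median of -0.06. NR1H3, the oxysterol receptor LXR alpha, had signals of 162, 105, 53.3 and 67.3 over 0, 6, 24 and 48 h, with log2 ratios of -1.60 and -1.26 at the late times. FOXA2, a forkhead factor of endoderm, rose from 299 to 914 at 48 h (1.61), with probe sets from 0.28 to 1.61. SREBF1, a regulator of lipid synthesis, had risen at 1, 3 and 6 h (1.07, 1.18 and 1.14) and had -0.06 at 48 h. CDX2, an intestinal homeobox factor, had fallen at 3 and 6 h (-1.81 and -1.27) and had -0.25 at 48 h. Of the 30 entries, 24 had a probe set of their own, and the remainder are not analysed here.

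The other apolipoprotein genes had 3 of 13 measured lower at 48 h and none higher, with a median of -0.11. Besides APOA5, APOL6, an interferon-inducible gene, was lower at -1.15, with probe sets from -1.15 to 1.69. APOL2 and APOO had fallen at 1 h, to signals of 20.0 and 23.5, log2 ratios of -1.75 and -1.73. APOL2 was lowest at 6 h (19.1, -1.82) and had -0.37 at 48 h, and APOO was again lower at 24 h (-1.02) and had -0.92 at 48 h.

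The genes nearest to these courses were sought among the 10437 other genes above the floor on all arrays, by the root mean square difference of the 5 log2 ratios. Nearest to the median course of the 9 genes above the floor on all arrays were HPX (0.08), ABCA5, PNPLA3, C11orf24, FDPS and LINC00467 (0.09 each), PEPD and BCL2L14 (0.10 each). HPX encodes hemopexin, a heme-binding plasma protein, and FDPS an enzyme of isoprenoid synthesis. The gene nearest to MTTP was LCT, the disaccharidase lactase of the brush border, at 0.16, with log2 ratios of 0.08, -1.35 and -2.11 over 6, 24 and 48 h. Nearest to APOM were NREP (0.11) and AADAC (0.13), an esterase of the endoplasmic reticulum, with -2.43 at 48 h. APOB lay nearest to HSD17B12 (0.06), an enzyme of fatty acid elongation, and APOA1 to HERC5 (0.05). Over 5 ratios that share the 0 h array, such a likeness describes these arrays only.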

How the data were processed

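Per the submitters' processing notes the authors made the deposited intensities, MAS5 signals per probe set on a linear scale, with MAS5; no version or scaling target is given in the sources used here. Total RNA (4 µg per array, per the labels) was extracted with ISOGEN and purified on RNeasy columns. The 2% trimmed mean was 93.8 on each of the 6 arrays, so no scaling was added. The floor is the 50th percentile of all values (16.2). Of 54675 probe sets 41091 had 1 symbol in the platform annotation, 1801 several and 11777 none; 62 control probe sets were left out. Symbols were updated through a RefSeq gene table of GRCh38.p14, which held 41037 of the identifiers. Ratios were computed with Python 3.11.15, pandas 2.3.3 and numpy 2.4.6, and the 2-fold rule was tested on simulated data. With 1 array per time, the number of arrays limits the precision.

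The members, lists and rules were chosen with earlier results of these data known. Besides the 10 genes, the text names up to 4 genes per list with the largest ratio at any time, and the nearest courses; genes outside this rule are marked. Alternatives were 2 scalings, 2 other floors (6.38 and 37.5), a pseudocount, the median over probe sets, leaving out _x_at and _s_at probe sets, other baselines and rules of 1.5-fold and 3-fold; the 6 h baseline was added after seeing the data.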

Additional observations from a re-analysis of the deposited data

How the results depend on the processing

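No member ratio past 2-fold changed direction under the alternatives run, but ratios short of 2-fold did: with the median over probe sets APOB went from -0.34 to 0.82 at 24 h and from -0.77 to 0.94 at 48 h, and without _x_at and _s_at probe sets APOC3 went from -0.98 to 0.90 and from -0.94 to 0.26. Over 445 recomputed ratios of single members, 409 kept their side of the 2-fold rule, these turned values included, 27 dropped below it and 9 passed it anew; causes were not tested. The count of members lower at 48 h, 6 as reported, was 4 to 6 under the planned scalings, floors, probe set choices and baselines, 8 at 1.5-fold and 2 at 3-fold. It was 3 against the 6 h array. Without _x_at and _s_at probe sets only 7 genes were left to count. At 24 h the count of 3 became 6 at 1.5-fold, 1 at 3-fold and 1 against the 6 h array. At 6 h the count of 1 became 0 against the 1 h array, 0 against the mean of 0 and 1 h, 0 at 3-fold and 4 at 1.5-fold, and at 3 h the count of 0 became 1 at 1.5-fold. At 1 h the count of 1, APOC2, became 0 with the floor at the 65th percentile, a pseudocount, the median over probe sets, without _x_at and _s_at probe sets, against the mean of 0 and 1 h and at 3-fold. With the median over probe sets 1 member, APOB, was higher at 1, 3 and 6 h, because its second probe set enters. The member median at 24 h, -0.90, was -0.63 with the floor at the 65th percentile, -0.40 without _x_at and _s_at probe sets (7 genes left), -0.57 against 1 h and -0.44 against 6 h; the median at 48 h was -0.76 against 6 h. The following list values turned: with the median over probe sets TM6SF2 at 3 h gave 0.06, and APOL6, LMF1 and MIA2 at 48 h gave 0.46, 0.22 and -0.11; APOO at 24 h gave 0.71 against 1 h. No paired analysis was possible because each time has 1 array. Low signals such as those of APOC2 limit what these arrays can show.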
